A study of Arabidopsis thaliana with 12 samples.

Results

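A set of 7 Arabidopsis thaliana genes, linked to flowers, meristems or reproduction by known role or by name alone, was followed through 12 array samples. The genes are SPL (AT4G27330), AGL103 (AT3G18650), FBL17 (AT3G54650), SAP (AT5G35770), DME (AT5G04560), LAS (AT1G55580) and AGL26 (AT5G26880). They were chosen by locus, through probes whose annotation names a single gene, and each of the 7 had 1 such probe among the 692 single-gene probes (691 genes) of the array. The plants were wild type of the ecotype Columbia 0. The 6 control samples came from plants grown at 20 °C in medium light, and the 6 recovered samples from plants that had been moved to 4 °C for 24 h in medium light and then returned to 20 °C in medium light for 24 h. The labels give neither the tissue nor the age of the plants, nor the origin of the replicates, so each p-value measures the spread between these samples only, which may be technical. In bulk RNA, fewer cells of a type and less RNA per cell cannot be told apart. The series holds no sample from the end of the cold itself.

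The genes with a known role act in plant reproduction, flowers or the start of side shoots. SPL (SPOROCYTELESS, also NOZZLE) is a transcriptional regulator needed to form the cells that enter meiosis in anthers and ovules. FBL17 is an F-box protein, the part of a ubiquitin ligase that selects its target, and lets the male germ cell of pollen divide by removing inhibitors of the cell cycle. DME (DEMETER) is a DNA glycosylase that removes methylated cytosine in the central cell of the female gametophyte and so switches on imprinted genes. SAP (STERILE APETALA) is an F-box protein needed for flowers and ovules and for organ growth. LAS (LATERAL SUPPRESSOR) is a transcriptional regulator of the GRAS family needed to start axillary meristems, from which side shoots grow. AGL103 carries the AGAMOUS-like name of the MADS-box family of transcription factors. AGL26 carries such a name in the gene table as well, but whether its locus encodes a MADS-box protein was not checked, and no role is given for either gene here.

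Values are intensities as deposited, in arbitrary units on a scale from 0 to 100, with an unknown background. All 7 genes lay at the low end of this scale. Their means ran from 0.341 to 0.967 in control and from 0.0266 to 0.269 in recovered samples. The arrays themselves differed between the groups: the median intensity of an array lay between 0.536 and 0.569 in control and between 0.0971 and 0.128 in recovered samples. A lower deposited value was therefore the usual case. The sum of intensities differed less, at 3627 to 3745 in control and 3153 to 3267 in recovered samples. The 25th percentile lay at 0.272 to 0.311 and at 0.0257 to 0.0473. The groups thus differed in the shape of the distribution and not only in its scale. Differences are given both as deposited and after scaling, as log2 recovered minus control, and a gene is called where the adjusted p of limma's test over all 2409 probes without a 0 is under 0.05. None of the 7 was at 0 on any array, so all 7 were tested.

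As deposited, all 7 genes fell, and for all 7 the highest recovered sample lay below the lowest control sample. The same held for 69.1% of all probes on the array, and limma called 75.5% of tested probes lower in deposited values, so these drops do not set the genes apart. After quantile normalization, which gives every array the same distribution of values, 3 of the 7 genes fell (SAP, DME and LAS) and 0 rose, where 31.1% of tested probes were lower and 37.5% higher. SPL, FBL17, AGL103 and AGL26 did not pass in either direction. The same 3 genes were called lower after median centring, where 27.8% of tested probes were lower, and after cyclic loess, where 32.2% were. Across the deposited values and the 3 scalings together, these 3 of the 7 genes were lower each time, as were 22.2% of tested probes. Each scaling moved the median of all tested probes, which lay at -1.58 as deposited, 0.08 after quantile normalization, 0.35 after median centring and -0.07 after cyclic loess.

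**Figure D1:**
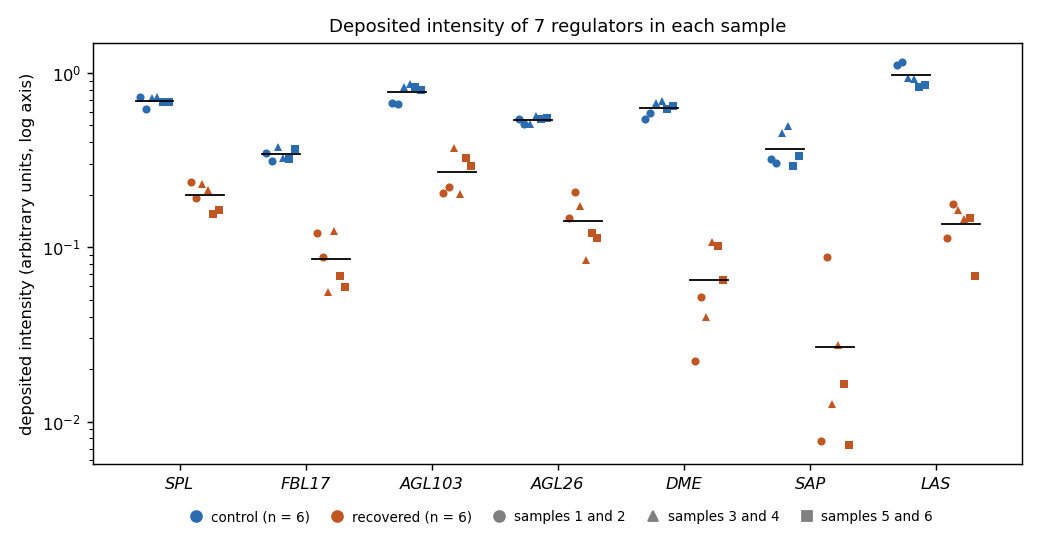
Deposited intensity (vertical log axis, arbitrary units) of each gene in each sample. Blue marks are the 6 control and orange marks the 6 recovered samples, marker shapes show samples 1 and 2, 3 and 4, and 5 and 6, and lines are group means. No recovered sample reaches the lowest control sample of its gene, and the recovered samples of SAP spread from 0.00733 to 0.0883.

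LAS, the regulator of side shoots, had intensities of 1.11, 1.16, 0.937, 0.923, 0.829 and 0.848 in control samples 1 to 6. After recovery, samples 1 to 6 stood at 0.113, 0.177, 0.163, 0.145, 0.148 and 0.0679. Control samples 1 and 2 were the highest, recovered sample 6 was the lowest, and the groups did not overlap. The means were 0.967 ± 0.136 and 0.136 ± 0.0396 (SD, n = 6 each), a level 7.13 times lower after recovery. Relative to the other probes, after quantile normalization, LAS fell by 1.098 on the log2 scale (SE 0.219, adjusted p = 0.000690). The difference was -0.96 in median-centred values (adjusted p = 0.00207), and cyclic loess put it at -0.94 (adjusted p = 0.00270).

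SAP, the F-box protein of flower and organ growth, had intensities of 0.321, 0.305, 0.451, 0.498, 0.293 and 0.335 in control samples 1 to 6. In recovered samples 1 to 6 it had 0.00770, 0.0883, 0.0127, 0.0274, 0.0164 and 0.00733. Recovered sample 2 lay far above the other recovered samples and control samples 3 and 4 above the other control samples, but the groups did not overlap. The means of 0.367 ± 0.0857 and 0.0266 ± 0.0311 (SD, n = 6 each) differed 13.8-fold, the largest ratio among the 7 genes, and 25.7-fold without recovered sample 2. After quantile normalization SAP fell by 1.77 on the log2 scale (SE 0.435, adjusted p = 0.00313). Median centring gave -2.43 (adjusted p = 0.000851) and cyclic loess -2.34 (adjusted p = 0.00154). The call was lost when consecutive samples of a group were fitted as a random block (adjusted p = 0.0900). In 4 of 6 recovered samples SAP lay below the 25th percentile of its array (0.0257 to 0.0473 over these arrays), and how much of such a value is background was not tested.

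DME, the DNA glycosylase of the central cell, had intensities of 0.541, 0.592, 0.672, 0.690, 0.621 and 0.647 in control samples 1 to 6. In recovered samples 1 to 6 it had 0.0222, 0.0521, 0.0396, 0.106, 0.102 and 0.0652. Recovered samples 4 and 5 were the highest and sample 1 the lowest of their group, and every control sample lay at least 5.08 times above every recovered sample. The means of 0.627 ± 0.0548 and 0.0646 ± 0.0339 (SD, n = 6 each) differed 9.71-fold. After quantile normalization DME fell by 1.31 on the log2 scale (SE 0.331, adjusted p = 0.00375). Median-centred values gave -1.54 (adjusted p = 0.00185), and cyclic loess gave -1.19 (adjusted p = 0.0146).

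As deposited, the log2 differences were -2.89 for LAS, -4.36 for SAP and -3.47 for DME. When neighbouring sample numbers were averaged first (1 with 2, 3 with 4, 5 with 6), leaving 3 values per group, the adjusted p was 0.0114 for LAS, 0.00326 for SAP and 0.0258 for DME. Then 23.6% of tested probes were called lower. In deposited values the same averaging left all 7 genes lower, as were 70.2% of tested probes. The sizes shrank when 0.1 was added to every value before the log, to -0.66 for LAS (adjusted p = 0.00164), -0.36 for SAP (adjusted p = 0.0415) and -0.54 for DME (adjusted p = 0.00673), where 30.2% of probes were called lower. Without the dimmer 50% of probes 3 of the 7 genes were left, and 1 of them, LAS, was lower, as were 33.3% of those probes. Control samples 1 and 2 of LAS resembled each other, as did 3 and 4, and 5 and 6: the mean absolute log2 difference was 0.038 within and 0.29 between such pairs. This likeness within pairs was seen in the control samples of 5 of the 7 genes and in the recovered samples of 4. LAS was not among the latter, with 0.65 within and 0.55 between pairs in recovered samples. The share of all probes with such likeness is not given here.

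SPL, the regulator of meiotic cell formation, had intensities of 0.725, 0.621, 0.720, 0.724, 0.678 and 0.677 in control samples 1 to 6. Recovered samples 1 to 6 stood at 0.237, 0.193, 0.229, 0.214, 0.154 and 0.163. Recovered samples 5 and 6 were the lowest, and the means of 0.691 ± 0.0408 and 0.198 ± 0.0343 (SD, n = 6 each) differed 3.48-fold. The deposited difference was -1.82 on the log2 scale (adjusted p = 4.88e-08), close to the median probe at -1.58. After quantile normalization it was 0.10 (SE 0.114, adjusted p = 0.468), with 0.11 for median centring (adjusted p = 0.452) and 0.07 for cyclic loess (adjusted p = 0.612).

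FBL17, the F-box protein of the male germ line, had intensities of 0.349, 0.313, 0.373, 0.325, 0.322 and 0.366 in control samples 1 to 6. In recovered samples 1 to 6 it had 0.121, 0.0876, 0.0554, 0.124, 0.0681 and 0.0593. Recovered samples 1 and 4 lay above the other recovered samples. The means were 0.341 ± 0.0252 and 0.0859 ± 0.0304 (SD, n = 6 each), 3.97 times lower after recovery, and the deposited log2 difference was -2.06 (adjusted p = 1.19e-06). It was 0.18 after quantile normalization (SE 0.171, adjusted p = 0.349), -0.13 in median-centred values (adjusted p = 0.547) and 0.21 with cyclic loess (adjusted p = 0.323). With probes at 0 kept in the table it was called higher, at 0.61 with zeros set to the smallest positive value (adjusted p = 0.00843) and at 0.33 with 0.1 added to every value (adjusted p = 0.0130). It was the 1 gene of the 7 called higher there, where 37.2% and 38.8% of all probes were.

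AGL103 had intensities of 0.675, 0.663, 0.833, 0.867, 0.834 and 0.801 in control samples 1 to 6. The recovered samples, in the same order, had 0.205, 0.220, 0.369, 0.202, 0.325 and 0.292. Samples 1 and 2 were low in control, and samples 1, 2 and 4 were low after recovery. The means of 0.779 ± 0.0877 and 0.269 ± 0.0703 (SD, n = 6 each) differed 2.895-fold, the smallest ratio among the 7 genes. The log2 difference was -1.57 as deposited (adjusted p = 2.24e-06) and 0.18 after quantile normalization (SE 0.160, adjusted p = 0.342), with 0.36 in median-centred values (adjusted p = 0.104) and 0.05 with cyclic loess (adjusted p = 0.816).

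AGL26 had intensities of 0.542, 0.508, 0.512, 0.564, 0.545 and 0.554 in control samples 1 to 6. After recovery the 6 samples had 0.147, 0.207, 0.173, 0.0841, 0.121 and 0.113. The control samples lay within a 1.11-fold range, the narrowest among the 7 genes, and the recovered samples within a 2.46-fold range, with sample 4 the lowest. The means of 0.538 ± 0.0226 and 0.141 ± 0.0443 (SD, n = 6 each) differed 3.82-fold. The log2 difference was -1.99 as deposited (adjusted p = 7.30e-07), 0.08 after quantile normalization (SE 0.152, adjusted p = 0.640), -0.06 in median-centred values (adjusted p = 0.744) and 0.21 with cyclic loess (adjusted p = 0.286). A probe that names AGL26 with other genes, 4 in all, was not used here.

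**Figure D2:**
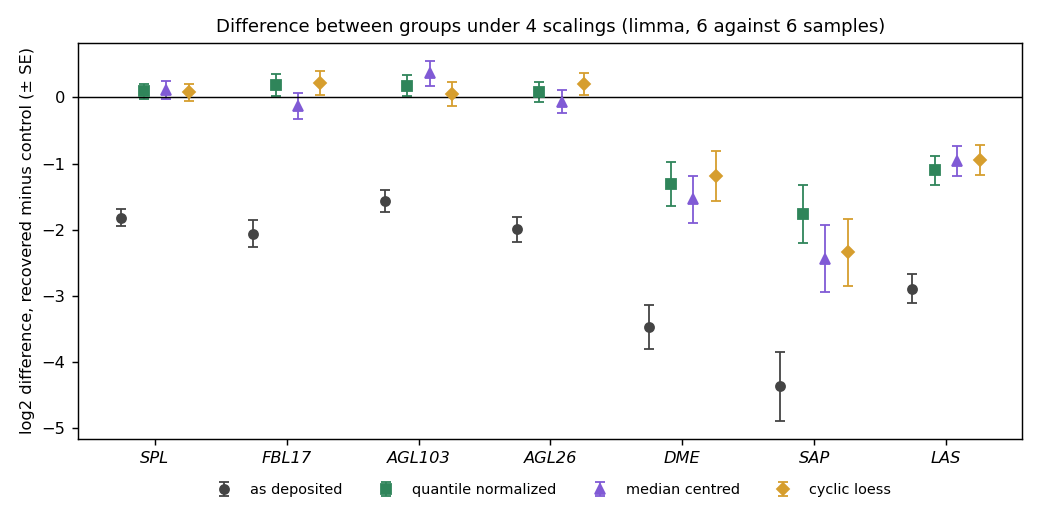
Log2 difference, recovered minus control (vertical axis), of each gene as deposited and after 3 scalings, with limma's SE as bars and 6 samples a group. SAP, DME and LAS lie below 0 under each scaling, while the other 4 genes lie below 0 as deposited and between -0.13 and 0.36 otherwise.

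The rank of a probe within its own array needs no scaling between arrays. It was expressed as a percentile of all probes on the array, and the difference in mean rank was tested with an exact two-sided permutation test of 6 against 6 samples, adjusted over all probes (smallest possible p = 0.00216). The test treats the samples as independent, while deviations of consecutive control samples correlated at 0.813 to 0.927 over probes. Its p-values may therefore be too small. LAS lay at 73.4 ± 5.23 in control and 55.1 ± 10.1 in recovered samples, a difference of -18.3 percentile points (adjusted p = 0.00434 in the exact test). DME lay at 55.6 ± 3.22 and 35.8 ± 13.6, a difference of -19.8 points (exact test, adjusted p = 0.0116). SAP lay at 32.5 ± 7.63 and 21.4 ± 9.54, and its difference of -11.1 points did not pass (exact test, adjusted p = 0.0744). Without recovered sample 2, the high one, it was -14.5 points and passed (exact test, adjusted p = 0.0120). That was the 1 pass for SAP among 12 fits that each left out 1 sample. The others gave adjusted p up to 0.139 in the exact test, so the rank call of SAP rests on dropping that sample. The rank test called 28.4% of all probes lower and 38.1% higher.

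Ranks of the other 4 genes went the opposite way. FBL17 rose from 29.8 ± 2.76 to 42.4 ± 8.39 percentile points (exact test, adjusted p = 0.00434), a difference of 12.6. The 100 probes nearest to it in mean control intensity had a median difference of 9.20 points, and 46 of them lay above FBL17. SPL rose from 59.96 ± 2.72 to 66.0 ± 4.15 (exact test, adjusted p = 0.0341). AGL26 rose from 48.6 ± 1.56 to 56.7 ± 7.60 (exact test, adjusted p = 0.0371), and AGL103, at 65.1 ± 4.48 and 71.5 ± 5.51, did not pass (exact test, adjusted p = 0.0850). Of the 7 genes, FBL17 had ranks that were higher in every recovered than in every control sample, as did 29.6% of all probes, and LAS had ranks that were lower in every recovered sample, as did 20.2%. The calls of SPL and AGL26 were fragile: leaving out control sample 2, 3, 4, 5 or 6 ended both, and leaving out control sample 1 or recovered sample 2 or 3 ended that of AGL26. AGL103 passed without recovered sample 1 (exact test, adjusted p = 0.0467).

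More probes stood at 0 on recovered arrays (13.2% on average) than on control arrays (4.58%). Ranked among the 2409 probes without a 0, the higher ranks no longer passed: FBL17 differed by 4.64 points (exact test, adjusted p = 0.374), SPL by 2.49 (adjusted p = 0.410), AGL26 by 2.51 (adjusted p = 0.582) and AGL103 by 3.94 (adjusted p = 0.369). The lower ranks all passed there, with LAS at -27.6 points and DME at -27.1 (exact test, adjusted p = 0.00436 for both) and SAP at -15.8 (exact test, adjusted p = 0.0147). In that set 30.2% of probes were called lower and 37.1% higher. The set is not neutral between the groups, since leaving out probes with a 0 removes more 0 values from recovered than from control arrays. Each of the 7 rank differences lay lower in it than among all probes. With consecutive samples averaged, 3 against 3, the exact test cannot go below p = 0.1 and called none of the 7.

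**Figure D3:**
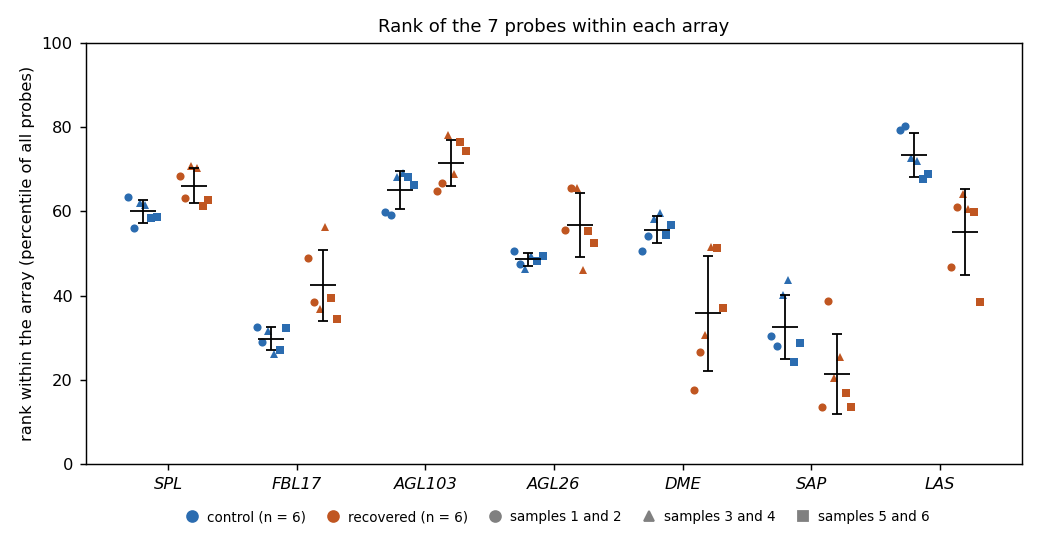
Rank of each probe within its array (vertical axis, percentile of all probes on the array) in each sample, with group means and SD as bars; blue is control and orange recovered, 6 samples each. Mean ranks of DME, SAP and LAS are lower after recovery, those of SPL, FBL17, AGL103 and AGL26 higher, and the groups are fully apart for FBL17 and LAS.

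Each gene was then set beside the 100 probes nearest to it in mean control intensity, as a description with no test, since these probes share the control samples. The measure was the log2 ratio of the deposited group means. SAP, at -3.78, lay below the middle 50% of its neighbours (-3.28 to -1.10, median -2.098), and 84 of the 100 had a higher ratio. DME, at -3.28 against a median of -2.37, and LAS, at -2.83 against -2.33, lay below the median but within the middle 50%, with 68 and 63 neighbours above them. AGL103, at -1.53 against -2.69, had 74 neighbours below it and lay just inside the upper bound of -1.48.

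SPL lay at -1.80 against a neighbour median of -2.39, AGL26 at -1.93 against -2.52 and FBL17 at -1.99 against -2.12. These 3 and AGL103 were the 4 genes above their neighbours' median, and 0 of the 7 lay above the middle 50%. With 50 or 200 neighbours the same counts were 4 above and 3 below, as they were for the difference in mean rank. By rank, LAS differed by -18.3 points against a neighbour median of -9.37, DME by -19.8 against -3.94 and SAP by -11.1 against 10.1. SPL differed by 6.08 against -5.01, AGL26 by 8.13 against -2.88, AGL103 by 6.38 against -11.3 and FBL17 by 12.6 against 9.20. Apart from SAP, the genes lay within the middle 50% of their neighbours.

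**Figure D4:**
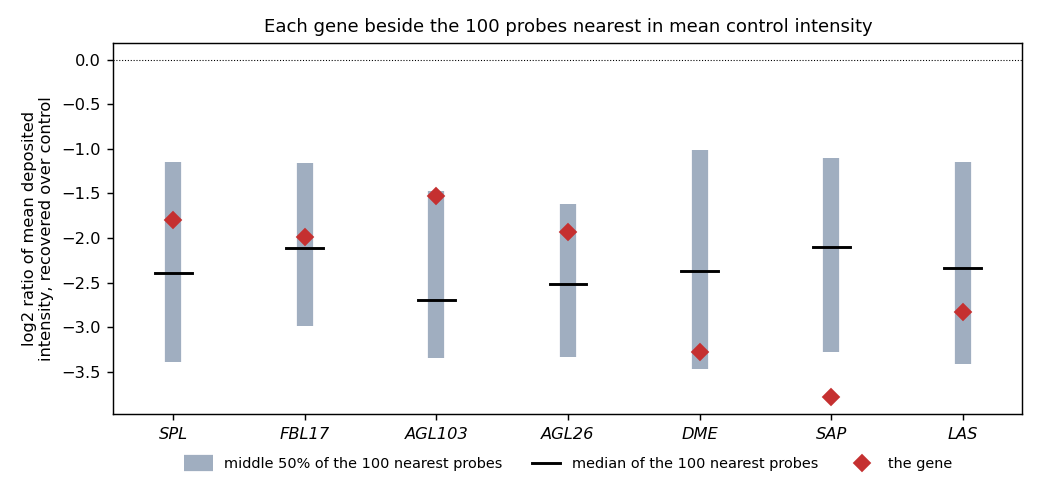
Log2 ratio of mean deposited intensity, recovered over control (vertical axis), of each gene (red) beside the median (black line) and middle 50% (grey bar) of its 100 nearest probes in control intensity. SAP, at -3.78, is the gene outside its grey bar.

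Within an array, the ratio of 2 of these genes is free of the scale of that array, though not of a change in the shape of its distribution. Over the 21 pairs of genes, 6 had log2 ratios that did not overlap between the groups, a smaller share than the 53.8% found over all pairs of tested probes. All 6 joined SAP, DME or LAS with SPL, FBL17, AGL103 or AGL26, out of 12 such pairs. That split of the genes came from limma's calls in these same samples, so the ratios restate it and lend it no separate support. The log2 ratio of SPL to LAS ran from -0.90 to -0.29 in control and from 0.06 to 1.26 in recovered samples. That of AGL103 to DME ran from 0.16 to 0.42 in control and from 0.92 to 3.22 in recovered samples. The log2 ratio of AGL103 to AGL26 averaged 0.53 ± 0.150 in control samples against 0.95 ± 0.544 in recovered samples (SD, n = 6 each). The ranges of the groups overlapped.

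Recovered samples scattered more than control samples for all 7 genes. The SD of log2 intensity ran from 0.061 to 0.32 in control and from 0.26 to 1.35 in recovered samples, widest in SAP (1.35) and DME (0.86) and narrowest in SPL (0.26). Over all tested probes the median SD was 0.18 in control and 0.42 in recovered samples, and 76.8% of probes scattered more after recovery. The recovered samples did not share an order across genes: sample 4 was among the highest for DME and FBL17 and the lowest for AGL26 and AGL103, and sample 2 was the highest for SAP, LAS and AGL26.

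Likeness to other genes was measured as the mean absolute difference in rank over the 12 samples, among 691 other single-gene probes, for which the median difference was 23.4 to 26.8 percentile points. The nearest to SPL were PPDK, the pyruvate orthophosphate dikinase (3.90 points), and AT3G58610 (4.04). AGL103 was nearest to AT4G34310 (3.36) and to CHLM, a methyltransferase of chlorophyll synthesis (3.50). FBL17 was nearest to AT1G65370 (4.70) and AT1G02020 (5.11), and AGL26 to AT3G29410 (4.65) and AT1G06510 (5.69).

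SAP was nearest to SIS, named in the gene table for its induction by salt (5.89 points), and AT1G76050 (6.35). DME was nearest to AT3G27550 (6.30) and AT1G67930 (6.38), and LAS to CRR21, named for chlororespiratory reduction (5.23), and AT5G19540 (5.45). SIS had deposited means of 0.389 in control and 0.0295 in recovered samples, and CRR21 of 0.980 and 0.154.

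Partners of these genes could not be set beside them. Of 134 genes in 6 lists (flower development, flowering time, meristem and axillary bud, anther and gamete, imprinting and DNA methylation, and ubiquitin ligase subunits) 0 had a probe that names them alone, and 5 were named only together with other genes. None of 18 markers of root, pollen, seed, floral organs and shoot meristem had such a probe either, while 5 of 6 leaf markers had one, with control means from 1.55 to 25.7. All 5 had a higher deposited mean after recovery, CHLP by little, and these differences were not tested. In deposited values limma called 238 of the 2409 tested probes higher. The 5 markers lay above the median intensity of the control arrays (0.536 to 0.569). Other probes as bright as these were not set beside them, so their rise is not shown to be particular to leaf markers. The means in control and recovered samples were 25.7 and 43.1 for PSBW and 1.55 and 2.86 for PSBY, which are photosystem II subunits, and 3.52 and 6.14 for PSAN, a photosystem I subunit. They were 13.7 and 26.5 for LHCB1.5, an antenna protein, and 2.65 and 2.86 for CHLP, an enzyme of chlorophyll synthesis. Which organs the RNA came from, and their part in these results, was therefore not tested.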

How the data were processed

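Array intensities of total RNA from 12 samples were taken as deposited, with 1 intensity per probe and sample, from 0 to 100; no label or header records how the authors corrected the background or scaled the arrays (not given in the sources used here). Names of the 692 single-gene probes came from the platform annotation, with symbols from the TAIR10.1 gene table (690 matched); 870 probes name several genes and 1877 none. The 1030 probes with a 0 on any array were left out, and log2 intensities of the other 2409 were quantile normalized and tested two-sided by lmFit and eBayes of limma 3.58.1 (Benjamini-Hochberg over the 2409 probes, threshold 0.05) in R 4.3.3. Ranks, permutation tests and nearest probes were computed in Python 3.11.15. Both tests were also run on simulated data with independent noise. These data lack the likeness of consecutive control samples, so they do not check the p-values in that respect. The alternatives were other scalings, filters and zero handling, blocks, averaging of consecutive samples, and leaving samples out; averaging in deposited values was added later.

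The 7 genes, the gene lists and the tests were chosen with earlier results of these data known. Named are the 7 genes, any list member with its own probe, and the 2 probes most alike in rank; PSBW, PSBY, PSAN, LHCB1.5 and CHLP are leaf markers. Deviations from the group mean correlated at 0.813 to 0.927 within consecutive control samples, at -0.115 to 0.00921 within consecutive recovered samples, and at -0.665 to -0.112 (control) and -0.279 to -0.187 (recovered) otherwise, over probes; no label says that these are technical pairs. The number of arrays limits the precision. Plots were drawn with matplotlib 3.10.9.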

Additional observations from a re-analysis of the deposited data

Results flagged for a closer look

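Among 14 groups of 6 samples (7 genes in the control and the recovered group), 1 held a sample far from the others in deposited intensity, where chance gives about 0.7. That was recovered sample 2 for SAP, at 0.0883, while the remaining samples of its group reached from 0.00733 to 0.0274. In deposited intensities, and not on the log2 scale that limma used, its gap to the next sample made up 0.752 of the whole range of the group. Without it the recovered mean of SAP was 0.0143 ± 0.00823 (SD, n = 5), and the log2 difference after quantile normalization was -2.11.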

How the results depend on the processing

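By limma the calls of DME and LAS held in each alternative that tested them, and that of SAP in each but consecutive samples as a random block, though adding 0.1 shrank SAP to -0.36, DME to -0.54 and LAS to -0.66. As deposited, 7 of the 7 genes were called, 7 lower, also with consecutive samples averaged (70.2% of tested probes were lower then), and the sign turned for SPL (-1.82), AGL103 (-1.57), FBL17 (-2.06) and AGL26 (-1.99). Without the dimmer 50% of probes 3 genes were tested and 1, LAS, was called, 1 lower, against 33.3% of probes, with SPL (-0.13) and AGL103 (-0.055) turned. Median centring turned FBL17 (-0.13) and AGL26 (-0.063), leaving out recovered samples 3 and 4 turned SPL (-0.017), and leaving out recovered samples 1 and 2 turned AGL26 (-0.0052), none of them called. With zeros set to the smallest positive value, or 0.1 added, 1 gene was higher, FBL17, against 37.2% and 38.8% of probes. Leaving out 1 sample gave 3 calls by limma in each case, and in the rank test 1 to 4 higher and 2 to 3 lower, against 3 and 2. Ranks among probes without a 0 gave 0 higher and 3 lower, and averaged pairs 0 and 0, a count that this design could not exceed. No source says that equal sample numbers mark pairs; deviations of same-numbered samples correlated at -0.0256 to 0.102, and 5 of 12 samples correlated best with their own number. With the replicate block limma called the same 3 genes (SAP -1.77, adjusted p = 0.00576), and the rank test 0 higher and 0 lower, its smallest possible adjusted p being 0.0512. The unknown background limits every value this low on the scale.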
